A study of Mus musculus with 24 samples.

Results

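Antigen presentation genes of the major histocompatibility complex (MHC) were followed in testis, spleen and brain of male Smc6 mutant and control mice. The set held 10 genes, 5 of class II (H2-Aa, H2-Ab1, H2-Eb1, H2-DMa and Cd74) and 5 of class I (H2-K1, H2-D1, B2m, Tap1 and Tapbp), and every array probe annotated to one of them was taken. This gave 18 probes, 9 per class, of 25697 probes on the array, and 10 of 16593 named genes. H2-Ab1 had 4 probes, B2m had 3, Cd74, H2-K1 and Tapbp had 2 each, and the other 5 genes had 1 each.

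SMC6 is a core protein of the SMC5/6 complex, which holds and helps repair chromosomes much as its cohesin and condensin relatives shape them. RNA from 4 homozygous mutants and 4 controls per tissue was hybridised to Illumina MouseRef-8 bead arrays, 1 mouse per array and 24 arrays in all. The spleens and testes were taken from one set of 8 mice aged 12 weeks, and the brains from 8 further mice aged 19 weeks, all males on a mixed C57BL/6J-129ola-Fvb background. In testis and spleen, control replicates 1 and 2 were +/+ and replicates 3 and 4 were +/- by their mouse identifiers, while the genotype label named all 4 wildtype. The brain controls were labelled wildtype, and their identifiers carry no genotype. The labels do not say what the Smc6 mutation is, so its effect on the protein is not known here. Smc6 itself read 8.01 to 8.28 in mutant and 7.98 to 8.31 in control testes, 6.80 to 7.40 in mutant and 6.66 to 7.10 in control spleens, and 5.72 to 6.01 in mutant and 5.81 to 5.93 in control brains (log2 intensity), with adjusted p of 1.00, 1.00 and 0.939 by limma, so this probe does not check the genotype labels. A testis array detected 12708 to 13344 probes, a spleen array 12049 to 13134 and a brain array 13784 to 14234.

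Class II molecules are heterodimers that show peptides from the endocytic pathway to helper T cells. Their subunits are made mainly by B cells, dendritic cells and macrophages under the co-activator CIITA, the invariant chain CD74 fills their groove during assembly, and H2-DM exchanges its remnant for peptide. Class I molecules, made by most nucleated cells, pair a heavy chain (H2-K1, H2-D1) with beta-2-microglobulin (B2m) and receive cytosolic peptides that the TAP transporter (Tap1 with Tap2) moves into the endoplasmic reticulum while tapasin (Tapbp) holds the complex together. Germ cells and neurons are known for low class I, and microglia are the main resident antigen-presenting cells of brain tissue.

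The promoters of 5 members are shown because they carry most of the motif matches searched for and because the heavy-chain pair resembles each other closely. Each is the RefSeq window of GRCm38.p6 that runs from 250 bases before to 50 bases after an annotated start, 300 bases in all, 5′ to 3′ on the gene's strand, and capitals mark motif matches. The motifs, chosen after the sequences had been seen and searched on both strands, were GATTGG (the inverted CCAAT box), GGGGATTCCCC (a kappa B-like element), AANNGAAA (the core of an interferon regulatory factor element) and CTNGCAAC (letters of the class II X1 box). Matches of different motifs did not overlap in these windows.
H2-Aa, chr17:34287774-34288073, minus strand: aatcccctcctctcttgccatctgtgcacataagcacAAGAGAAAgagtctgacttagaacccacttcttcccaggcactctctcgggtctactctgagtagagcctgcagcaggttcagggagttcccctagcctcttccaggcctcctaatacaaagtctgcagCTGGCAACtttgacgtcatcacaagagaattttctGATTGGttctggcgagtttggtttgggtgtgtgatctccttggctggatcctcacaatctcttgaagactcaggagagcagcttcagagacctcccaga
H2-Eb1, chr17:34305617-34305916, plus strand: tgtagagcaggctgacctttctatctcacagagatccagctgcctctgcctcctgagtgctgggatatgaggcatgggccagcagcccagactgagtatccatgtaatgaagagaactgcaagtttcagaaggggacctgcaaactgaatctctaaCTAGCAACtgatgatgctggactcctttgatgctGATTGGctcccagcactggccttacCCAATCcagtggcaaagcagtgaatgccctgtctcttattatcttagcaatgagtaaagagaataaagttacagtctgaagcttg
H2-K1, chr17:34000284-34000583, minus strand: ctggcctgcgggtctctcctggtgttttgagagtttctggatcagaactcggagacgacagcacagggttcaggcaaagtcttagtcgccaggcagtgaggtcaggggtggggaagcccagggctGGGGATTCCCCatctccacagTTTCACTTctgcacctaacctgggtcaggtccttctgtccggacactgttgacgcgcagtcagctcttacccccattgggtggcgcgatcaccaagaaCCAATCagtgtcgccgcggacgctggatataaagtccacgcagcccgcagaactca
H2-D1, chr17:35262844-35263143, plus strand: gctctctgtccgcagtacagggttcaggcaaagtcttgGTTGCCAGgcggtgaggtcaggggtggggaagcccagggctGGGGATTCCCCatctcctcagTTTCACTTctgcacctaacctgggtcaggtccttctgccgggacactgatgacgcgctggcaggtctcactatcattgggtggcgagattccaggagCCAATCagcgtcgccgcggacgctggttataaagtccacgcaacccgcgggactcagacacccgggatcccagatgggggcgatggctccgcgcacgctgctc
B2m, chr2:122147437-122147736, plus strand: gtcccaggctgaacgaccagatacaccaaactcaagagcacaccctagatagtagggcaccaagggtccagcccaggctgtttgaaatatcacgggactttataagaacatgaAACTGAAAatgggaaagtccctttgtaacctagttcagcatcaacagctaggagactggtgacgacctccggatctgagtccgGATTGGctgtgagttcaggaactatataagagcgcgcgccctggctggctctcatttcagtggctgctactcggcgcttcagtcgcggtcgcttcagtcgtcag

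Of the 10 members, 8 had a promoter window searched here, Tap1, Tapbp, H2-DMa and the 5 printed. Cd74 was left out of the search, and H2-Ab1 had no window. H2-DMa and H2-K1 have 2 annotated starts each, which makes 10 windows. The 2 H2-K1 windows overlap and hold the same matches, so each of these is counted in both. A GATTGG match was found in 8 of the 10 windows and in 7 of the 8 members. It stood in 16.1% of 32851 mouse promoter windows of the same length, and Tapbp and the first H2-DMa window lacked it. In H2-Aa it began 49 bases and in H2-Eb1 60 bases before the start, with a CTNGCAAC match at 84 and at 94 bases, letters that 3.42% of windows held. H2-D1, a class I gene, held a CTNGCAAC match on the other strand 212 bases before its start, and the class II gene H2-DMa held none. The kappa B-like letters were copied from the H2-K1 window, so the match there was given in advance. The H2-D1 window, a near copy, held them too, as did 10 windows in all (0.0304%). AANNGAAA was found in 6 of the 10 windows and in 5 of the 8 members, against 23.9% of all windows. These were both windows of H2-K1, the second of H2-DMa and those of H2-D1, H2-Aa and B2m. The H2-K1 and H2-D1 windows shared 217 of 241 aligned bases (90.0%). The genes themselves are close copies, and their alleles differ between the strains mixed here, so the split of signal between the H2-K1 and H2-D1 probes is uncertain. A match describes letters and does not show that a factor binds.

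Spleen had much higher levels of the class II genes than testis or brain, in mutants and in controls. In control mice the 9 class II probes lay 4.16 to 7.46 above testis and 4.76 to 8.31 above brain on the log2 scale, and the 8 class I probes that could be tested lay 0.29 to 4.55 above testis and 1.34 to 4.65 above brain. Here and below a level is the background-corrected and normalized log2 intensity of a probe, and levels are compared between samples and never between probes. The spleen was higher than testis at 17 of 17 member probes tested (limma, adjusted p under 0.05), where 47.4% of all 15288 probes were higher, and higher than brain at 17 of 17, where 42.1% of 15747 were and 82.2% differed in either direction. The 17 include probes that entered only because spleen detected them. In bulk RNA, fewer cells of a type and less RNA per cell cannot be told apart.

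**Figure D1:**
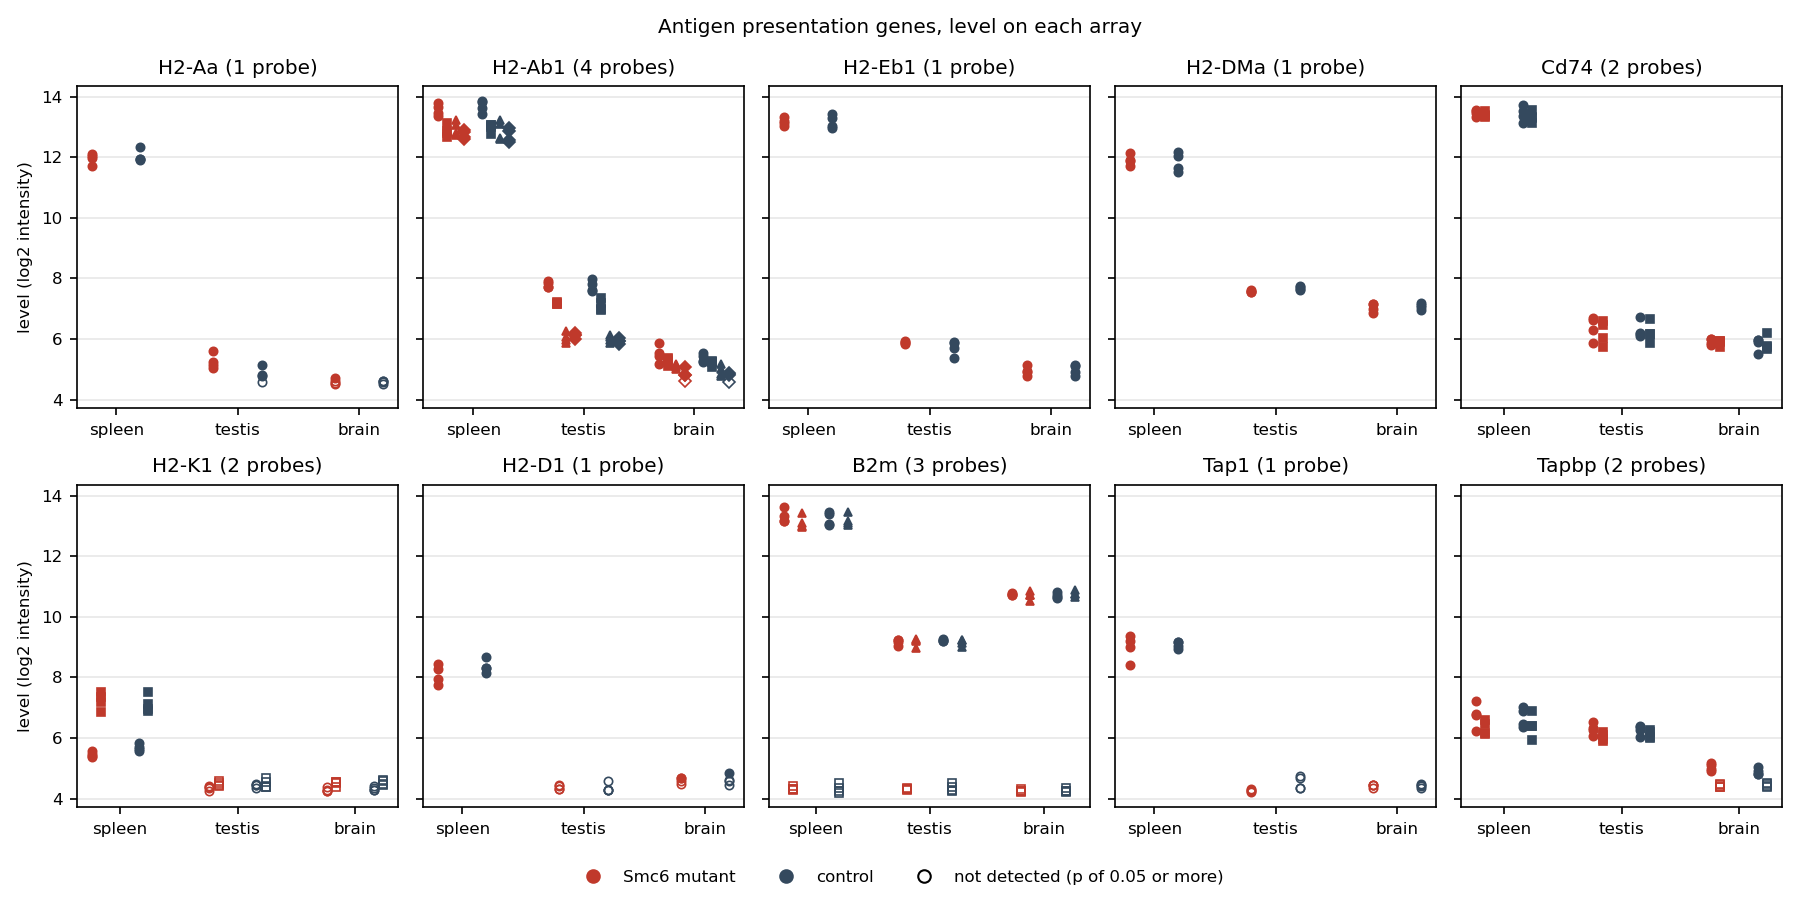
Level (log2 intensity, vertical axis) of each probe of the 10 genes on each of the 24 arrays, by tissue, with Smc6 mutants (red) left of controls (dark blue); marker shapes separate the probes of a gene and open markers are arrays that did not detect the probe. Mutants and controls lie close together in each tissue, spleen lies far above the other tissues for class II genes, and 2 of the 3 B2m probes read 8.98 or more in all 3 tissues.

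Among the class II peptide-binding chains, H2-Aa, the alpha chain of the A molecule, read 11.97, 12.04, 11.71 and 12.12 in the mutant spleens and 11.95, 12.32, 11.92 and 11.95 in the control spleens. In testis it read 5.61, 5.25, 5.14 and 5.04 in mutants and 4.59, 5.14, 4.82 and 4.77 in controls, and in brain 4.52 to 4.73 in mutants and 4.52 to 4.61 in controls. The spleen values stood far above both other tissues with no overlap, while in brain 1 of 8 arrays detected the probe and in testis 6 of 8. Spleen minus testis in controls was 7.21 (SE 0.12, adjusted p = 3.56e-25). Against brain, where the probe was detected in 0 of 4 controls, control spleens were at least 167-fold higher (adjusted p = 3.32e-25). A bound of this kind replaces the undetected level by the lowest level that counts as detected on that array, or by the probe's own where higher. Each bound holds for the main processing only, and other processing moved the fitted differences, as given below.

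H2-Eb1, the beta chain of the E molecule, read 13.12, 13.32, 13.04 and 13.20 in mutant spleens and 13.42, 13.02, 13.30 and 12.96 in control spleens. Its levels were 5.84, 5.95, 5.86 and 5.89 in mutant and 5.38, 5.88, 5.90 and 5.69 in control testes, and 4.93, 4.79, 4.94 and 5.14 in mutant and 4.92, 4.78, 5.14 and 5.10 in control brains. All 24 arrays detected it, the 3 tissues did not overlap in control animals, and the order was spleen, testis, brain. Control spleens exceeded control testes by 7.46 (SE 0.12, 176-fold), the largest spleen minus testis difference of the 17 member probes, and control brains by 8.19 (SE 0.12, 293-fold). Testis exceeded brain by 0.73 (SE 0.12, limma adjusted p = 4.76e-06).

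H2-Ab1, the beta chain of the A molecule, was read by 4 probes that ordered the tissues alike and disagreed on the sizes. Probe ILMN_1226525 read 13.36, 13.78, 13.45 and 13.65 in mutant spleens and 13.87, 13.63, 13.81 and 13.43 in control spleens. The same probe gave 7.90, 7.71, 7.84 and 7.71 in mutant and 7.61, 7.98, 7.83 and 7.58 in control testes, and 5.44, 5.16, 5.54 and 5.85 in mutant and 5.26, 5.26, 5.53 and 5.45 in control brains. Genotypes overlapped in each tissue, and the tissues did not overlap. Spleen minus testis in controls was 5.94 (SE 0.13) at this probe and 5.86 (SE 0.11) at ILMN_2607675, but 6.89 (SE 0.14) at ILMN_2631423 and 6.79 (SE 0.11) at ILMN_2913716. Testis minus brain split the same way, 2.37 and 1.90 at the first pair and 1.05 and 1.15 at the second. The probe pairs therefore differed by more than the standard errors of either, and which transcripts each probe reads was not tested.

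H2-DMa, a chain of the peptide exchange factor H2-DM, had the smallest difference between spleen and the other tissues of the class II members. It read 11.87, 12.14, 11.72 and 11.90 in mutant spleens and 12.16, 11.65, 12.03 and 11.52 in control spleens. In testis it read 7.56, 7.59, 7.62 and 7.55 in mutants and 7.74, 7.73, 7.64 and 7.61 in controls, and in brain 7.00, 6.85, 7.14 and 7.17 in mutants and 6.95, 7.13, 7.05 and 7.18 in controls. It was detected on every array, and spleens stood above both other tissues without overlap. Spleen exceeded testis by 4.16 (SE 0.12, 17.8-fold) and brain by 4.76 (SE 0.12, 27.1-fold) in controls, and testis exceeded brain by 0.60 (SE 0.12, limma adjusted p = 3.83e-05).

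Cd74, the invariant chain, was read by 2 probes that agreed. ILMN_1221817 gave 13.52, 13.47, 13.32 and 13.55 in mutant spleens and 13.71, 13.36, 13.52 and 13.12 in control spleens. It gave 6.70, 6.30, 6.64 and 5.88 in mutant and 6.17, 6.72, 6.11 and 6.19 in control testes, and 5.81, 5.86, 6.01 and 6.00 in mutant and 5.52, 5.96, 5.96 and 5.91 in control brains. Spleens stood apart, while testis and brain lay close together with more spread between testes than between brains. Spleen minus testis was 7.13 at both probes (SE 0.16, 140-fold), and spleen minus brain 7.59 and 7.48 (SE 0.16). Testis minus brain was 0.46 (SE 0.16, limma adjusted p = 0.0105) and, at ILMN_3089584, 0.36 (SE 0.16, adjusted p = 0.0439). These calls did not hold without single libraries. Without testis control replicate 2 the differences were 0.32 (adjusted p = 0.0659) and 0.21 (adjusted p = 0.218), and without brain control replicate 1 they were 0.35 (adjusted p = 0.0533) and 0.32 (adjusted p = 0.0972). At ILMN_3089584 the call was also lost without testis control replicates 1 (0.37, adjusted p = 0.0571) or 3 (0.37, adjusted p = 0.0580) and without brain control replicates 2 (0.33, adjusted p = 0.0906) or 4 (0.30, adjusted p = 0.114).

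H2-Aa was the class II probe whose testis minus brain difference was not called in controls (limma adjusted p = 0.0667). It was detected in 2 of 4 control testes and 0 of 4 control brains, and the levels of these tissues overlapped. The difference was 0.25 with an interval of -0.009 to 0.503, which includes 0, so testis was not shown to be higher. Its bound of 1.13-fold is not a minimum, because the testis mean includes undetected levels. The difference was called without testis control replicate 1 (adjusted p = 0.0242) and among mutants (adjusted p = 3.08e-05). Over the 13 member probes tested between these tissues, 10 were higher in testis, 2 lower and 1 was not called, beside 38.6% of all 16549 probes higher, 47.2% lower and 85.8% different in either direction.

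**Figure D2:**
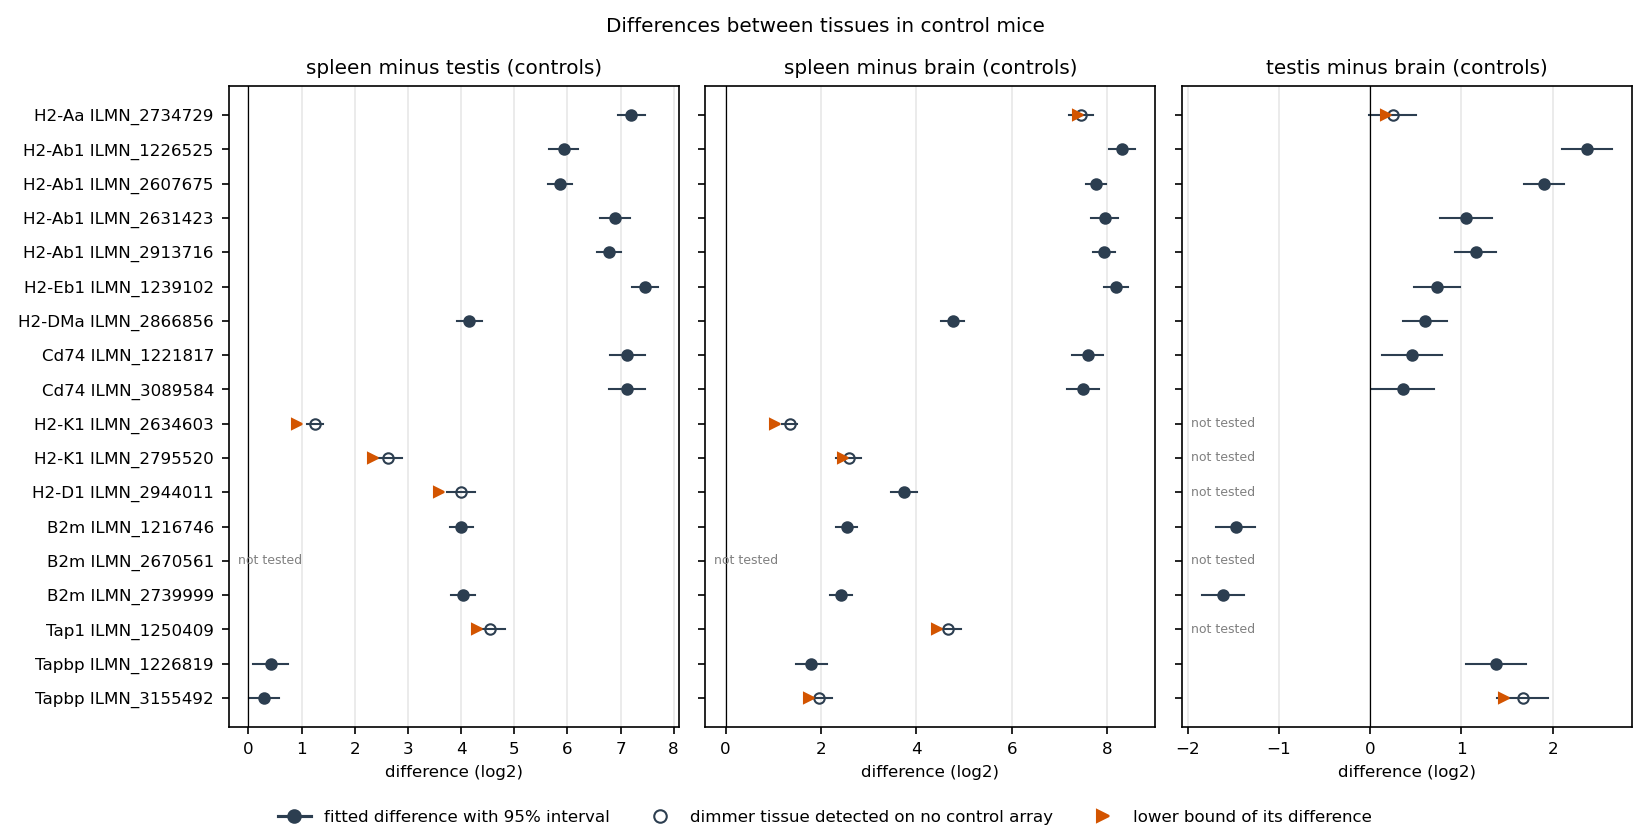
Differences between tissues in control mice (horizontal axis, log2) for the 18 probes, with 95% intervals; open circles mark probes that no control array of the dimmer tissue detected, and orange triangles give the lower bound there. Class II probes other than H2-DMa lie between 5.86 and 8.31 in both comparisons with spleen, and both detected B2m probes lie below 0 for testis minus brain.

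Of the class I members, beta-2-microglobulin and tapasin were detected in all 3 tissues. B2m probe ILMN_1216746 read 13.63, 13.34, 13.15 and 13.15 in mutant spleens and 13.45, 13.03, 13.40 and 13.06 in control spleens. It read 9.04, 9.24, 9.24 and 9.17 in mutant and 9.20, 9.20, 9.24 and 9.26 in control testes, and 10.79, 10.74, 10.71 and 10.74 in mutant and 10.65, 10.71, 10.62 and 10.82 in control brains. No 2 tissues overlapped, and here brain stood above testis, the reverse of the class II order. Control spleens exceeded control testes by 4.01 (SE 0.11, 16.1-fold) and brains by 2.53 (SE 0.11, 5.79-fold), and testis minus brain was -1.47 (SE 0.10, limma adjusted p = 1.52e-12). ILMN_2739999 gave 4.03, 2.42 and -1.61 for the same differences. ILMN_2670561 was detected on 0 of 24 arrays and says nothing about the gene.

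The heavy-chain probes were detected in spleen and hardly elsewhere. The lack of detection in testis and brain does not show that the genes are silent there. H2-D1 read 7.96, 8.26, 7.76 and 8.44 in mutant spleens and 8.30, 8.16, 8.67 and 8.32 in control spleens. No testis and 3 of 8 brains detected it, 2 mutants and 1 control, at levels of 4.29 to 4.86 over those 16 arrays. Control spleens were at least 12.0-fold above control testes (limma adjusted p = 9.58e-20), and above control brains with a fitted difference of 3.74 (SE 0.13, adjusted p = 5.92e-19). In brain 1 of 4 control arrays detected it and the control mean was 4.62, near the lowest detected level of the brain arrays (4.62 to 4.67), so that difference rests mostly on undetected levels.

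H2-K1 probe ILMN_2795520 read 7.19, 7.52, 6.85 and 7.36 in mutant spleens and 6.88, 7.52, 7.12 and 6.96 in control spleens, and ILMN_2634603 read 5.58, 5.42, 5.48 and 5.36 in mutants and 5.59, 5.63, 5.82 and 5.70 in controls. Neither was well above background in any testis or brain. The brighter probe was at least 5.09-fold higher in control spleens than in control testes (limma adjusted p = 7.19e-16) and at least 5.53-fold higher than in brains, and the dimmer one at least 1.88-fold and 2.04-fold. The 2 probes thus give bounds of different size for 1 gene.

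Tap1, a subunit of the peptide transporter, read 8.42, 9.19, 9.02 and 9.37 in mutant spleens and 9.17, 8.94, 9.16 and 9.04 in control spleens. It was detected in 0 of 16 testes and brains. Control spleens were at least 19.7-fold above testes (limma adjusted p = 2.13e-20) and at least 21.5-fold above brains (adjusted p = 2.10e-20).

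Tapbp (tapasin) differed least between spleen and testis of the 10 genes. ILMN_1226819 read 7.22, 6.80, 6.77 and 6.25 in mutant spleens and 6.89, 6.48, 7.02 and 6.38 in control spleens, 6.25, 6.35, 6.07 and 6.54 in mutant and 6.36, 6.41, 6.26 and 6.05 in control testes, and 4.92 to 5.18 in mutant and 4.81 to 5.03 in control brains. Spleen and testis overlapped and brain lay below both. Spleen minus testis was 0.42 (SE 0.16, limma adjusted p = 0.0166) and, at ILMN_3155492, 0.29 (SE 0.14, adjusted p = 0.0486). The call at the first probe was lost without testis control replicate 4 (0.35, adjusted p = 0.0616), spleen control replicate 1 (0.36, adjusted p = 0.0569) or spleen control replicate 3 (0.31, adjusted p = 0.0792). At the second it was lost without testis control replicates 1 (0.26, adjusted p = 0.103), 3 (0.25, adjusted p = 0.122) or 4 (0.32, adjusted p = 0.0533) and without spleen control replicates 1 (0.29, adjusted p = 0.0724), 2 (0.30, adjusted p = 0.0686) or 3 (0.13, adjusted p = 0.302). Spleen and testis levels of tapasin therefore count as neighbours that do not separate firmly. Testis minus brain was 1.38 (SE 0.16) at the first probe, and at least 2.76-fold at the second, which no brain detected.

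Markers of antigen-presenting cells were higher in spleen too. Of the listed genes tested in control mice, 15 of 15 B cell, 13 of 13 macrophage and 9 of 9 dendritic cell genes were higher in spleen than in testis (limma, adjusted p under 0.05), with median differences of 4.47, 3.70 and 2.02. Against brain 15 of 16 B cell genes were higher and 1 lower, 12 of 13 macrophage genes were higher and 1 was not called, and 8 of 9 dendritic cell genes were higher and 1 lower. Lists of other cells were higher in spleen than in testis as well. These were 16 of 16 T cell genes, 8 of 9 erythroid genes (1 lower) and 10 of 11 endothelium genes (1 not called). Their median differences were 4.03, 4.09 and 2.07, so the pattern was not particular to presenting cells. Of pancreas acinar genes 1 of 12 was higher, and of choroid plexus genes 1 of 6. Over all probes 47.4% were higher in spleen than in testis and 42.1% higher than in brain. The marker genes tested include some that entered only because spleen detected them. Between testis and brain the B cell, macrophage, dendritic cell and microglia markers had no shared order, beside 38.6% of all probes higher in testis and 47.2% lower. Testis was higher for 3 and lower for 1 of 6 B cell genes, higher for 3 and lower for 6 of 11 macrophage genes, lower for 3 of 5 dendritic cell genes with the other 2 not called, and lower for 15 of 16 microglia genes. Within spleen, the detected B cell genes, 15 of the 17 on the array, had a median level of 9.28 to 9.81 in mutants and 9.29 to 10.07 in controls, and the detected macrophage genes, 13 of 15, of 8.96 to 9.21 in mutants and 8.87 to 9.30 in controls. In testis 4 B cell and 7 macrophage genes were detected, and in brain 4 and 11. Of 9 spleen-defining genes, 7 were detected in spleen and 0 in testis or brain. Of 10 testis-defining genes 8 were detected in testis and of 10 brain-defining genes 9 in brain, as the organ labels say, and 5 of the 10 testis genes were also detected in spleen. The part of cell makeup in the tissue differences was not tested. Brain cannot be told apart from its animals and their age in any comparison that includes it.

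No member was called different between Smc6 mutants and controls. Of the members, 13 probes of 7 genes were tested in testis, 17 of 10 genes in spleen and 11 of 6 genes in brain, and 0 passed limma's adjusted p of 0.05 in each tissue. Over all probes the share called was 0% of 13152 in testis, 0% of 12449 in spleen and 0.228% of 14027 in brain. At an unadjusted p under 0.05 the members counted 2 in testis, 0 in spleen and 0 in brain, against 628, 268 and 1732 of all probes. Mutants and controls were free of overlap at 0 tested member probes of testis, 1 of spleen and 0 of brain, beside 2.71%, 1.33% and 6.66% of all probes. The tested probes are those detected on at least 4 of a tissue's 8 arrays.

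**Figure D3:**
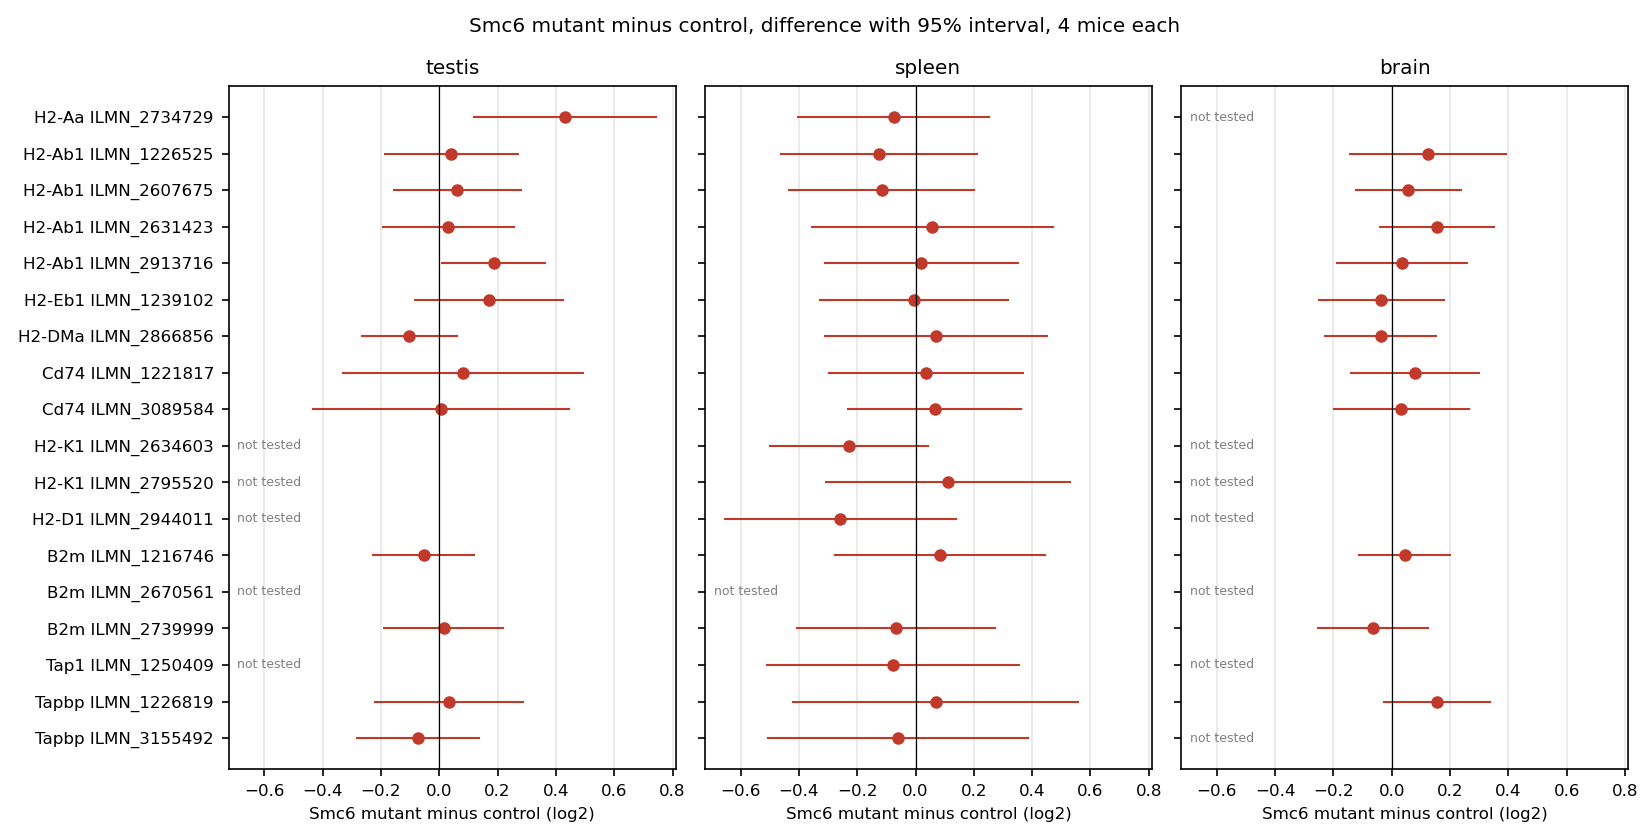
Smc6 mutant minus control difference (horizontal axis, log2) with its 95% interval for each member probe in testis, spleen and brain, 4 mice per genotype; probes detected on under 4 of 8 arrays are marked as not tested. Every interval spans 0 except those of H2-Aa and H2-Ab1 ILMN_2913716 in testis, neither of which passes the adjusted test.

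In testis the class II probes had a median mutant minus control difference of 0.06 and the class I probes of -0.02, beside 0.00 over all probes. H2-Aa, whose values are given above, averaged 5.26 ± 0.25 in mutants and 4.83 ± 0.23 in controls (SD, n = 4 each). The difference was 0.43 with an SE of 0.14, at a limma adjusted p = 0.978. It entered the test through 4 mutant and 2 control arrays, and the genotypes overlapped. H2-Ab1 ILMN_2913716 read 6.15, 6.20, 6.02 and 6.14 in mutants and 5.94, 6.04, 5.94 and 5.85 in controls, a difference of 0.19 (SE 0.08, adjusted p = 1.00), and its other 3 probes were at 0.03 to 0.06. The remaining differences lay between -0.10 for H2-DMa and 0.17 for H2-Eb1. The 95% intervals reached at most 1.67-fold, at H2-Aa, a dim probe whose differences the normalization compresses.

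In spleen, where the genes are brightest, the median difference was 0.02 for class II and -0.06 for class I, beside -0.01 over all probes. Class II differences ran from -0.12 at H2-Ab1 ILMN_1226525 to 0.07 at H2-DMa. Class I differences ran from -0.26 (SE 0.18) at H2-D1 to 0.11 (SE 0.19) at H2-K1 ILMN_2795520. The other H2-K1 probe had all mutants below all controls, at -0.23 (SE 0.12, limma adjusted p = 1.00), and it was the 1 member probe of 17 without overlap. The 2 probes of H2-K1 had opposite signs. Intervals reached at most 1.57-fold.

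Pancreas transcripts stood high in 2 mutant spleens, and 0 of 9 tested acinar genes passed limma's genotype test there. The median level of 9 detected acinar genes was 10.25, 9.21, 5.45 and 5.68 in mutants and 4.76, 5.71, 4.97 and 5.44 in controls, so mutant replicates 1 and 2 stood apart. In testis mutant replicate 1 was highest, at 7.82, with the others between 4.81 and 5.76. The 5 testis-defining genes detected in spleen had medians of 5.66 to 7.46 in mutants and 4.76 to 6.46 in controls, and their part in the values was not tested. Without the first 2 mutant spleens, 0 of 17 member probes passed limma's test.

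In brain, 8 class II and 3 class I probes were tested, with medians of 0.05 and 0.04, beside -0.01 over all probes. Differences ran from -0.06 at B2m ILMN_2739999 to 0.15 at Tapbp ILMN_1226819 (SE 0.08, limma adjusted p = 0.494), whose mutants read 5.10, 4.97, 4.92 and 5.18 and controls 4.81, 4.81, 4.90 and 5.03. At H2-Ab1 ILMN_2631423 the difference was also 0.15 (SE 0.09, adjusted p = 0.529). Intervals reached at most 1.31-fold, the narrowest of the tissues. The normalization compresses differences of dim probes, those of H2-Ab1 and H2-Eb1 here among them, so this is not a limit on RNA change. Of 16 detected microglia genes, 1 lay above 0, with a median of -0.10, and 0 of them passed the test. Their median level was 6.33 to 6.54 in mutants and 6.39 to 6.58 in controls. Other brain lists fell on both sides of 0, with endothelium at a median of -0.10 (2 of 9 genes above 0) and B cell at 0.07 (4 of 4).

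Whether the genotype difference itself varied between tissues was tested by interaction contrasts, in which 0 of 13 member probes differed between spleen and testis, 0 of 11 between brain and testis and 0 of 11 between brain and spleen, with 0.0097%, 0.00941% and 0% of all probes called. H2-Aa had a spleen effect 0.51 below its testis effect (SE 0.18, limma adjusted p = 0.805), the largest of these. Heterozygous controls minus wild-type controls, 2 mice each, differed by -0.39 to 0.19 in testis and by -0.21 to 0.26 in spleen over the member probes, with 0 called, beside 0.0228% and 0% of all probes. Over the 8 mice that gave both organs, testis and spleen levels of a member probe had Pearson r of -0.61 to 0.22 with a median of -0.13, against 0.02 over 10313 probes. In 26 exact permutation tests (r and rho for 13 probes) the smallest adjusted p was 0.983, and 0 passed. Without the 2 mice farthest from the median testis level, r lay between -0.96 at Tapbp ILMN_1226819 and 0.75 at H2-Eb1. Their exact permutation p, not adjusted over the probes, was 0.00278 and 0.0792. Over all 8 mice r was -0.21 and -0.31 at these probes, so it moved with single mice.

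The rest of the class II pathway was read from a list of 19 genes, 16 of them on the array. In the genotype comparison 0 of 5 passed in testis, 0 of 13 in spleen and 0 of 8 in brain. The smallest p was that of Marchf8, a ubiquitin ligase that can act on surface class II, at -0.30 in brain (SE 0.10, limma adjusted p = 0.225). Between tissues, 12 of 13 tested genes were higher in control spleen than testis and 11 of 13 higher than brain. Over all probes 47.4% and 42.1% were higher. Some of the 13 entered only because spleen detected them, since 5 were detected in testis and 8 in brain. Ciita, the class II co-activator, was detected in 4 of 4 control spleens and in 0 control testes and brains, which puts spleen at least 34.3-fold and 37.3-fold higher. H2-Oa and H2-Ob, which hold back H2-DM, were at least 44.3-fold and 46.3-fold higher than in testis and at least 48.1-fold and 50.3-fold higher than in brain. H2-DMb1, a beta chain of H2-DM, was 4.56 (SE 0.15) above testis and 6.17 (SE 0.15) above brain, and it stood above brain in testis too, by 1.60 (SE 0.15). Between testis and brain, 2 of 9 tested genes of the list were higher in testis, H2-DMb1 and H2-Eb2. Another 5 were lower and 2 were not called, with a median of -0.35, beside 38.6% of all probes higher and 47.2% lower. Rfxap, a subunit of the RFX complex that binds class II promoters, was not called in either comparison, at -0.21 against testis (SE 0.11, limma adjusted p = 0.0730) and 0.01 against brain (SE 0.11, adjusted p = 0.944).

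The class I list held 34 other genes, 29 on the array. In the genotype comparison 0 of 12 passed in testis, 0 of 20 in spleen and 0 of 16 in brain, with Psme2, an activator subunit of the proteasome, nearest in brain at 0.32 (SE 0.08, limma adjusted p = 0.130). In control spleens 17 of 20 tested genes were higher than in testis and 2 lower. Against brain 17 of 23 were higher and 5 lower. Of all probes, 47.4% and 42.1% were higher in these comparisons. Here too, some of the genes tested entered only because spleen detected them. Tap2, the partner of Tap1, was 5.43 (SE 0.15) above testis and 3.73 (SE 0.16) above brain, and the immunoproteasome subunit Psmb9 was at least 45.1-fold above testis and 5.27 (SE 0.11) above brain. The lower genes in spleen than testis were the chaperones Calr, by 2.38 on the log2 scale (SE 0.25), and Pdia3, by 0.38 (SE 0.14). Nlrc5, the co-activator of class I genes, was detected in all control testes and in no control brain, and testis was at least 2.79-fold higher. Testis was nonetheless lower than brain for 11 of 17 tested genes of the list, beside 47.2% of all probes, among them Psmb10 at -2.30 (SE 0.11), Psme1 at -1.82 (SE 0.09) and Tap2 at -1.70 (SE 0.15), and higher for 2, Calr and Nlrc5.

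**Figure D4:**
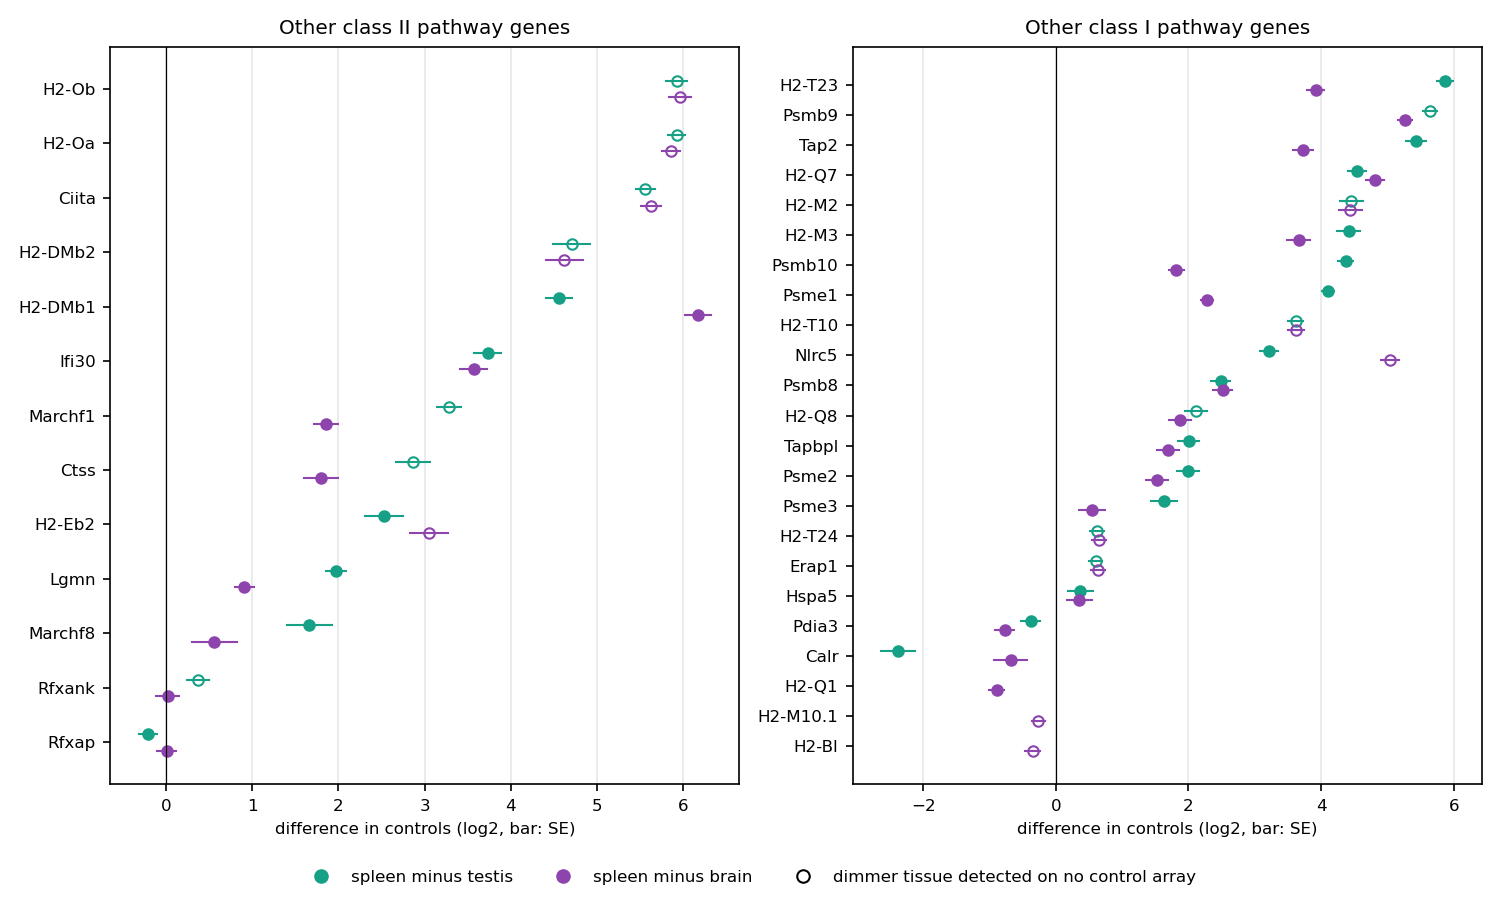
Spleen minus testis (green) and spleen minus brain (purple) differences in control mice (horizontal axis, log2, bars are SE) for the other genes of the class II list (left) and the class I list (right); open circles mark genes that no control array of the dimmer tissue detected. Most genes lie right of 0, while Rfxap lies near 0 and Calr and Pdia3 lie left of it.

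Genes whose level followed the members most closely were taken by Pearson r with the mean of the detected class II or class I probes, as a description over arrays that share tissue and depth. Over the 24 arrays, the class II mean had its nearest genes in Btla, S100a11, Prkd2, Cd84, Fcrla and Lyz1 (r of 0.998 to 0.997), and the class I mean in Serpinb6b, Cd3g, Cd22, Myo1g, Il18r1 and Samd9l (r of 0.999 at each). Over the 8 spleens alone other genes came first, Napsa, Rnf185, Clu, Mfge8, Gm2a and Ntn5 for class II (r of 0.978 to 0.954) and Dennd3, Pacsin1, Rab39, Slc1a3, Man2c1 and Sltm for class I (r of 0.962 to 0.929), each the highest of 9631 probes.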

How the data were processed

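The authors deposited intensity values with the background subtracted, for 24 arrays on a linear scale, and beside each a detection p-value, as the file headers name them. Their software was GenomeStudio 2011.1, per the submitters' processing notes. Values below 0 made up 22.2% to 25.1% of an array. A second intensity table deposited by the authors was already normalized (its method is not given in the sources used here) and served as an alternative.

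The intensities were corrected and quantile-normalized over all 24 arrays with neqc (limma 3.58.1, R 4.3.3, offset 16, negative controls inferred from the detection p-values), which compresses differences of dim probes. Probes were tested when detected (p under 0.05) on at least 4 of the 8 arrays of a tissue, of either tissue for tissue contrasts, or of both for interactions. Probe genes came from the platform annotation: 23978 probes had 1 symbol and 1719 had none. Genotypes were compared within each tissue, and tissues in controls with the animal as a random block (estimated correlation 0.00913), by lmFit and eBayes with Benjamini-Hochberg adjustment over all probes tested. Intervals are at 95%. The number of arrays limits the precision, and no slide or scan batch is given. Correlations used exact permutation (scipy 1.17.1). Promoters were aligned with biopython 1.88. The methods were tested on simulated data.

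No pairing of mutants with controls by replicate number was seen. Deviations of same-numbered arrays correlated at -0.06 to 0.03 in testis, -0.33 to 0.10 in spleen and -0.18 to 0.30 in brain, with both signs in each tissue. So few arrays cannot exclude a pairing.

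The genes named are all member probes, the list members with the smallest p per tissue or past the threshold, and the 6 closest genes by correlation; a listed gene was read by its brightest detected probe. Among listed genes past the threshold between tissues, the examples were chosen after their values were seen. The members, lists and tests were chosen with earlier results of these data known. Alternatives covered normalization, offset, filters, array weights, control genotype, the replicate block and leaving out arrays.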

Additional observations from a re-analysis of the deposited data

Results flagged for a closer look

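In 5 of 85 groups of 4 arrays tested over the member probes, 1 array lay far from the other 3 relative to the group's range. Chance gives about 1 such group in 20. H2-Aa read 12.32 in spleen control replicate 2, and the other controls lay between 11.92 and 11.95. Cd74 accounted for the rest. At ILMN_1221817 testis control replicate 2 read 6.72 against 6.11 to 6.19 in the other controls, and the gene's second probe, ILMN_3089584, was also highest there at 6.65. At ILMN_1221817 brain control replicate 1 read 5.52 against 5.91 to 5.96, while the second probe gave 5.74 in that mouse, inside its group. At ILMN_3089584 brain mutant replicate 2 read 5.74 against 5.92 to 5.94, and brain control replicate 3 read 6.20 against 5.69 to 5.76, where the first probe gave 5.86 and 5.96.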

How the results depend on the processing

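No member probe passed the genotype test in any tissue under any alternative, with differences of -0.19 to 0.62 in testis, -0.37 to 0.24 in spleen and -0.12 to 0.24 in brain. Over all probes the brain count of 32 became 4 with each tissue normalized alone, 1 with the deposited normalized values, 51 with an offset of 50, 3 without a filter on dim probes, 83 with array quality weights and 0 to 88 without 1 array; in testis and spleen it stayed 0. With the replicate number as a block the counts were 0, 0 and 43, and 0 for the members. Without the animal block the tissue contrasts called 17, 17 and 12 member probes, as before. The same contrasts among mutants called 17, 17 and 12. Leaving out 1 array gave 15 to 17, 17 and 10 to 12 member probes, and 12912 to 13008, 12628 to 12809 and 13919 to 13999 probes in all. The sizes of the tissue differences moved more than the counts. Over all alternatives, spleen minus testis ran from 3.33 to 4.73 at Tap1 and from 2.73 to 4.39 at H2-D1. Spleen minus brain ran from 6.19 to 7.49 at H2-Aa and from 3.37 to 4.92 at Tap1. The bounds were computed for the main processing only, so they are not minima over the alternatives. The interaction counts over all probes were 1 between spleen and testis (4 without a filter, 2 without both pancreas-carrying mutant spleens, 1 to 3 without 1 array), 1 between brain and testis (2 without a filter, 0 to 1 without 1 array) and 0 between brain and spleen (6 without both pancreas-carrying spleens, 0 to 3 without 1 array), with 0 members in each. The causes were not tested. Outside the arrays left out in turn, the Cd74 ILMN_3089584 call for testis minus brain was lost with the deposited normalized values (0.33, limma adjusted p = 0.0546), an offset of 50 (0.24, adjusted p = 0.0641), no filter (adjusted p = 0.0676) and among mutants (0.33, adjusted p = 0.0598). The Tapbp ILMN_3155492 call for spleen minus testis was lost with the deposited values (0.25, adjusted p = 0.0900) and no filter (adjusted p = 0.0705), and H2-Aa gained its testis minus brain call with the deposited values (adjusted p = 0.00906). Probes near background limit what could be seen in testis and brain. Against spleen, H2-K1 and Tap1 had only bounds in both, H2-D1 in testis, and H2-Aa and Tapbp ILMN_3155492 in brain.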

Other observations

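Interferon-stimulated genes, which interferon induces together with many antigen presentation genes, were higher in spleen than in the other tissues. Of 28 on the array, 22 of 22 tested were higher in control spleen than in control testis and 21 of 22 higher than in brain (limma, adjusted p under 0.05), beside 47.4% and 42.1% of all probes. The 22 include genes that entered only because spleen detected them. The transcription factor gene Irf1 was 5.54 (SE 0.12) above testis and 4.79 (SE 0.12) above brain on the log2 scale, and the guanylate-binding protein gene Gbp2 was 5.62 (SE 0.14) and 4.46 (SE 0.14) above them. Testis was lower than brain for 14 of 18 and higher for 2, beside 47.2% and 38.6% of all probes. Between mutants and controls 0 of 10 passed in testis, 0 of 22 in spleen and 0 of 17 in brain, with median differences of 0.02, 0.04 and -0.02.

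Neighbours of the members in the MHC region that do not present antigen were mixed. Of 20 tested, 12 were higher and 4 lower in control spleen than in testis, and 15 higher and 2 lower than in brain, beside 47.4% and 42.1% of all probes higher. Some of the 20 entered only because spleen detected them. Ltb, a lymphotoxin chain made by lymphocytes, was at least 33.2-fold above testis and 36.1-fold above brain. Bag6, a chaperone gene known for its role in spermatogenesis, was lower than in testis, at -2.05 (SE 0.08), and 0.07 (SE 0.08) against brain. The class I-like genes Cd1d1, which presents lipids, and Fcgrt, the neonatal Fc receptor, were 4.99 (SE 0.19) and 3.34 (SE 0.16) above testis. No gene of the 17 lists examined passed limma's genotype test in any tissue. These example genes were chosen after their values were seen.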
